A study of Mus musculus with 10 samples.

Results

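Interferon response genes are the genes that cells switch on after type I and type II interferons bind their surface receptors, together with the receptors and transcription factors that carry the signal. They were followed here in ventricular cardiomyocytes and whole hearts, with a knockdown (KD) of VAChT or wild type (WT). VAChT is the transporter that loads acetylcholine into synaptic vesicles of nerve endings. The members were 45 symbols chosen by name, and a gene was measured where a probe set (the group of oligonucleotides read as 1 value) carried its symbol and no other. Of these 45 genes, 40 were measured, out of 19938 genes measured in all. Isg15, Gbp2, Igtp and Irgm2 sat on probe sets with several symbols, and Ifi44 was not listed with a symbol of its own, so no values are given for these 5.

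The KD groups were 3 arrays of ventricular cardiomyocytes and 2 arrays of whole hearts, and the WT groups were likewise 3 and 2 arrays. All animals were untreated male C57BL/6 mice aged 3 months, and each array held a pool of 2 RNA samples, so that the spread between arrays is a spread between pools. The series title names the line VAChT KDHOM, and the labels do not say how the knockdown was made or in which cells it acts. Cardiomyocyte RNA was labelled after an Ambion and an Affymetrix manual and heart RNA after an Affymetrix manual alone, so a labelling batch and the kind of sample cannot be told apart.

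Type I interferon is sensed by the receptor chains Ifnar1 and Ifnar2, whose kinases activate Stat2. Stat2 joins Irf9 in a complex that binds the interferon-stimulated response element in the promoters of the induced genes. The products sense foreign RNA, block viral replication and translation, tag proteins with the ubiquitin-like protein Isg15, or attract lymphocytes, and in the heart they are best known from viral myocarditis and from macrophage responses to tissue injury. Usp18 removes Isg15 and damps the receptor, which makes it the brake of the pathway.

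Array values are log2 intensities, on which a step of 1 is a doubling of brightness; they were compared only for the same gene on arrays of the same kind. Medians over all probe sets lay between 5.82 and 5.93 on cardiomyocyte arrays and between 7.25 and 7.31 on heart arrays, and levels in the 2 kinds were therefore set side by side only as percentiles among the genes of an array. Correlations between replicates over all genes were 0.994 to 0.995 in KD and 0.992 to 0.993 in WT cardiomyocytes, and 0.98 in KD and 0.993 in WT hearts. The 10 cardiomyocyte markers stood at a median percentile of at least 99.8 on every array. Slc18a3, the gene of VAChT, had values of 6.22, 6.52 and 6.21 in KD and 6.06, 6.37 and 6.04 in WT cardiomyocytes, and of 7.31 and 7.84 in KD and 7.34 and 7.72 in WT hearts, so this probe set did not separate the genotypes. KD heart replicate 1 stood apart: its 6 thymocyte markers summed to an intensity of 8149.5, against 684.5 in KD replicate 2 and 557.6 and 628.0 in the WT hearts. In cardiomyocytes it was WT replicate 3 that stood apart, in the interferon genes themselves.

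WT cardiomyocyte replicate 3 carried the highest value of the 6 cardiomyocyte arrays in 33 of the 40 genes (82.5%), against 17.7% of all genes. Ifit1, Ifit3, Usp18, Mx2 and the factors Irf7 and Irf9 were among those more than doubled there relative to every other array, KD and WT. In 9 of the 40 genes (22.5%) this array lay at least 1 log2 unit above each of the other 5; only 19 of all 19938 genes (0.0953%) did so. No interferon gene stood out in this way on any of the other 5 cardiomyocyte arrays, on each of which at most 2 genes of any kind did.

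**Figure D1:**
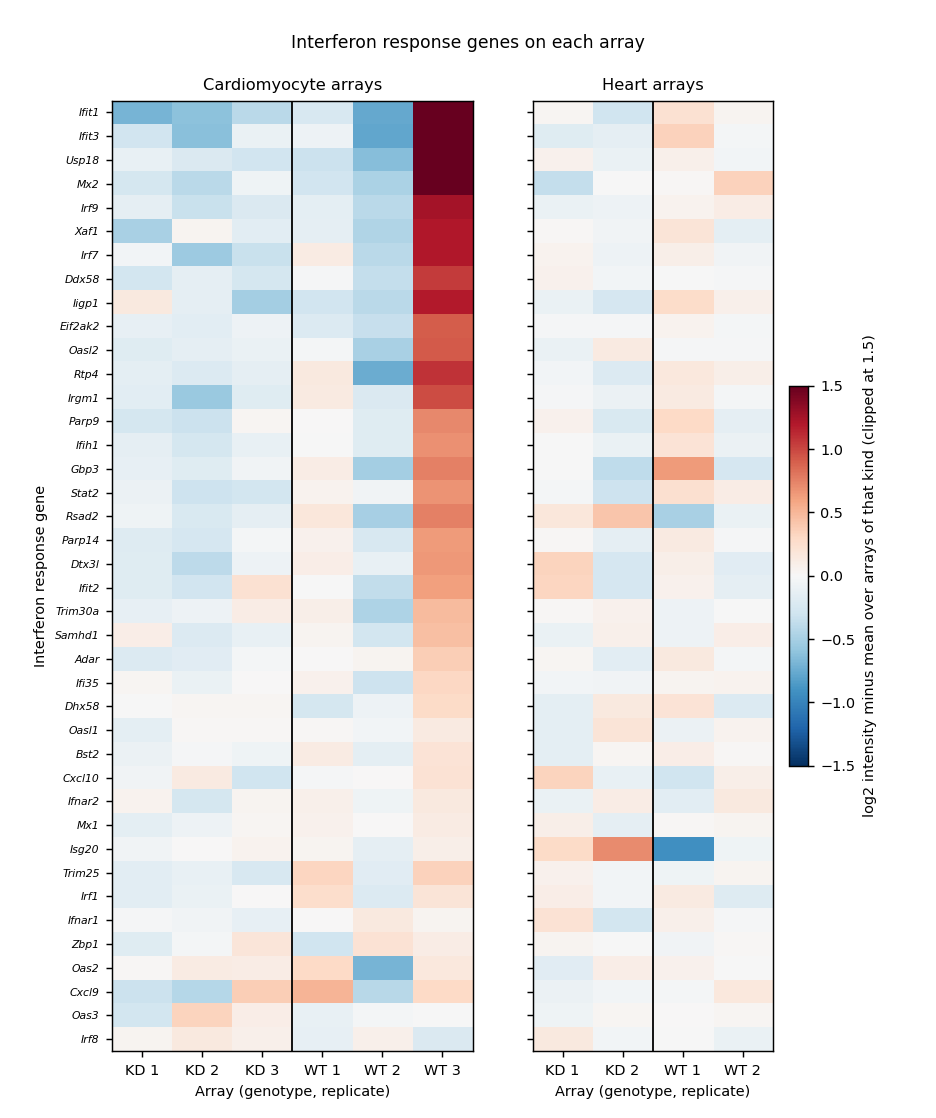
Heat map of the 40 measured interferon response genes (rows) on each array (columns, KD left of WT), as log2 intensity minus the gene's mean over the arrays of that kind, clipped at 1.5. The column of WT cardiomyocyte replicate 3 is red over most of its length, with the highest value in 33 of 40 genes, whereas the KD cardiomyocyte columns and the heart columns stay mostly pale.

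Ifit1, which binds foreign RNA caps and blocks their translation, had values of 6.48, 6.57 and 6.78 on the KD arrays and of 6.94, 6.42 and 9.90 on WT replicates 1, 2 and 3. Replicate 3 was 7.77-fold brighter than the next highest array, the widest such gap of all 19938 genes. Ifit1 lay between percentiles 53.7 and 62.7 on the other 5 arrays and at percentile 95.1 on this one. Ifit3, a relative of Ifit1, had 6.67, 6.33 and 6.86 in KD and 6.88, 6.17 and 8.84 in WT cells, a 3.88-fold gap. The family members share sequence, and how far their probes keep them apart is not known here.

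Usp18, the brake, had 6.98, 6.89 and 6.82 on the KD arrays and 6.78, 6.47 and 8.66 on the WT arrays, 3.20-fold above the next array in WT replicate 3. Mx2, a dynamin-like GTPase whose human namesake blocks viral capsids, was dim, with 4.54, 4.39 and 4.73 in KD and 4.51, 4.33 and 6.29 in WT cells. Both genes had 2 WT arrays within or below the span of the KD arrays and 1 far above. Xaf1, an interferon-induced partner of an apoptosis inhibitor, had 6.15, 6.67 and 6.47 in KD and 6.49, 6.18 and 7.83 in WT cells.

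Rtp4, a receptor chaperone induced by interferon, had 5.53, 5.47 and 5.54 in KD and 5.83, 4.94 and 6.77 in WT cells; here the WT arrays lay on both sides of a narrow KD group. Iigp1, a GTPase that attacks the vacuoles of intracellular parasites, had 8.30, 8.02 and 7.64 in KD and 7.87, 7.74 and 9.34 in WT cells. Ddx58, the RNA sensor RIG-I, had 7.19, 7.33 and 7.21 in KD and 7.45, 7.11 and 8.52 in WT cells. The KD values of Rtp4 and Ddx58 fell inside the span of the WT values, and for Iigp1 all but KD replicate 3 did.

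The factors Irf9 and Irf7 were also more than doubled in WT replicate 3 over every other array, and the receptors Ifnar1 and Ifnar2 were not. Irf9, the DNA-binding subunit of the type I complex, had 7.34, 7.14 and 7.26 in KD and 7.33, 7.07 and 8.72 in WT cells, 2.61-fold above the next array in WT replicate 3. Irf7, which amplifies type I interferon production, had 6.52, 6.01 and 6.22 in KD and 6.68, 6.15 and 7.76 in WT cells. Ifnar1 had 7.68, 7.64 and 7.58 in KD and 7.70, 7.85 and 7.74 in WT cells, and Ifnar2 had 8.77, 8.44 and 8.75 in KD and 8.79, 8.65 and 8.86 in WT cells. In WT replicate 3, Ifnar2 lay 0.067 log2 units above the next array, and Ifnar1 peaked in WT replicate 2 instead.

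Irf1, the main factor of the type II response, peaked in WT replicate 1 instead, with 6.33, 6.39 and 6.50 in KD and 6.75, 6.29 and 6.68 in WT cells. A further probe set of Irf1 had 6.23, 6.31 and 6.21 in KD and 6.24, 6.25 and 6.15 in WT cells, with no such peak. Irf8, a factor of myeloid cells, was the 1 member lowest in WT replicate 3, with 6.30, 6.41 and 6.34 in KD and 6.15, 6.35 and 6.05 in WT cells. Cxcl9, a lymphocyte chemokine best known as a type II target, was high on 1 KD and 2 WT arrays, with 7.40, 7.30 and 8.09 in KD and 8.23, 7.31 and 8.02 in WT cells.

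**Figure D2:**
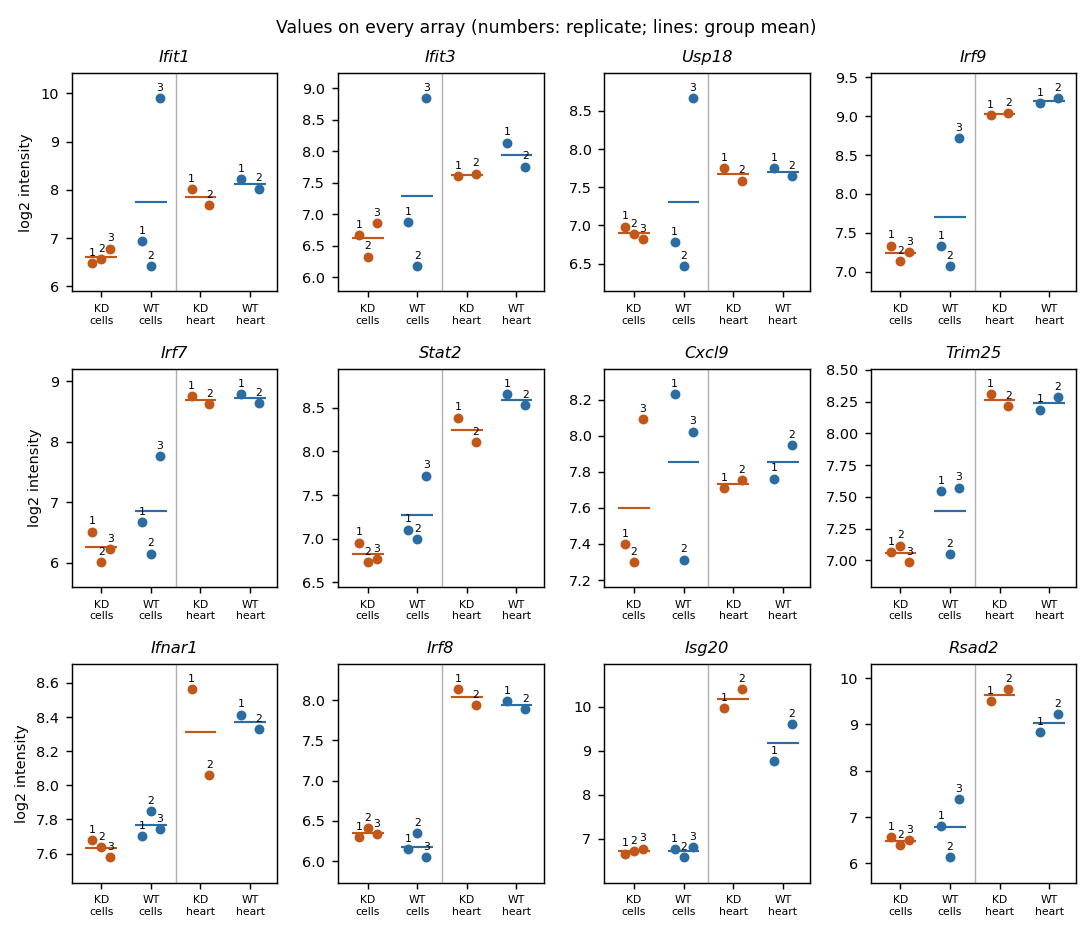
Log2 intensity of 12 interferon response genes on each array, with KD left of WT within cardiomyocytes and within hearts; points carry the replicate number and lines are group means. In Ifit1, Ifit3, Usp18, Irf9 and Irf7 the WT cell mean is drawn up mainly by replicate 3, and in Isg20 and Rsad2 both KD hearts lie above both WT hearts.

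WT replicate 2 was the low end of the same genes. It was the lowest of the 6 arrays in 19 of 40 genes (47.5%), against 14.7% of all genes. The order WT replicate 3 above replicate 1 above replicate 2 held in 30 of 40 genes (75.0%), against 14.4% of all genes. The gap between the highest and lowest WT array had a median of 0.89 log2 units over the interferon genes and 0.23 over all genes. Among the KD arrays the same gap had a median of 0.19 over the interferon genes and 0.22 over all genes. A gap of at least 1 was found in 0 of 40 genes among the KD arrays (0.266% of all genes) and in 15 of 40 among the WT arrays (37.5%, against 0.627% of all genes). The KD arrays thus varied among themselves no more in these genes than in genes at large, while the WT arrays did.

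Groups by role differed in how far WT replicate 3 lay above the KD mean. The 3 interferon-inducible GTPases averaged 1.17 log2 units above it, the 9 antiviral effectors 1.10, the 3 other induced genes (Ifi35, Rtp4 and Xaf1) 1.00, and the 6 enzymes of ubiquitin and ADP-ribose transfer 0.89. The 7 receptors and transcription factors averaged 0.60, the 10 RNA and DNA sensors 0.53 and the 2 chemokines 0.36. By medians the order was another: the 9 effectors stood at 0.70, below the 3 GTPases (1.27), the 3 other induced genes (1.25) and the 6 enzymes (0.83), and the receptors and factors at 0.27. Ifit1 and a few others thus carried the mean of the effectors. WT replicate 3 was the highest array in all 9 effectors, all 6 ubiquitin and ADP-ribose enzymes, all 3 GTPases and all 3 other induced genes, and in 7 of 10 sensors, 4 of 7 receptors and factors and 1 of 2 chemokines. WT replicate 1 averaged 0.14 above and replicate 2 averaged 0.15 log2 units below the KD mean over all 40 genes (-0.15).

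The members with the narrowest WT ranges included relatives of genes that peaked in WT replicate 3. Mx1, a relative of Mx2 whose gene carries a deletion in most laboratory strains, had 4.09, 4.16 and 4.26 in KD and 4.30, 4.24 and 4.35 in WT cells, at a mean percentile of 13.4. Oas3 and Oasl1 belong to the oligoadenylate synthetase family, which activates RNA decay. Oas3 had 5.04, 5.66 and 5.42 in KD and 5.21, 5.29 and 5.32 in WT cells, and Oasl1 had 6.81, 6.98 and 6.98 in KD and 6.98, 6.92 and 7.10 in WT cells. Their relative Oasl2 had 6.75, 6.79 and 6.83 in KD and 6.89, 6.44 and 7.85 in WT cells, with WT replicate 3 above all others.

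**Figure D3:**
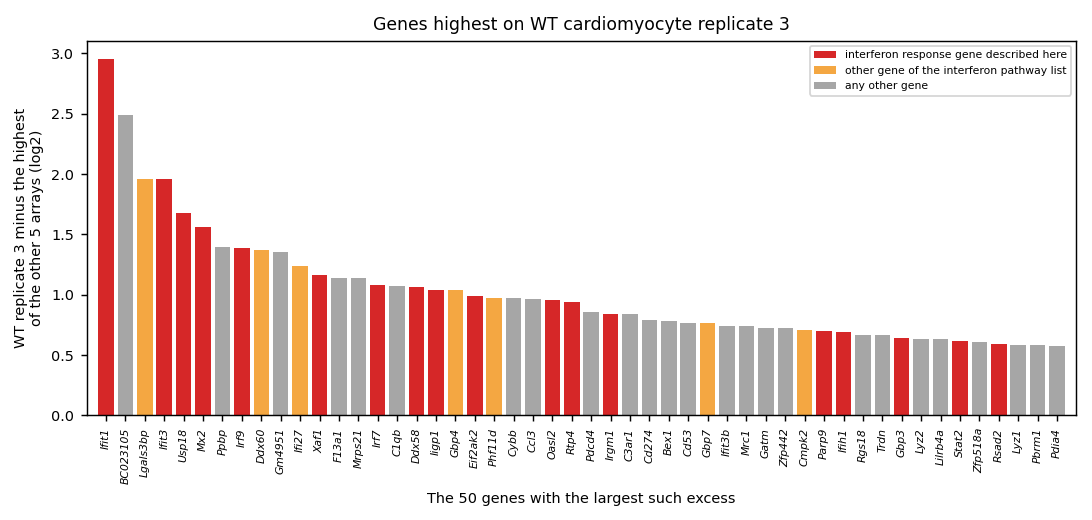
Bars give, for the 50 genes with the largest gap, the log2 intensity of WT cardiomyocyte replicate 3 minus the highest of the other 5 cardiomyocyte arrays. Ifit1 is first of all 19938 genes, and 18 of the 50 are interferon response genes described here, with 7 more from a wider interferon pathway list.

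The 19 genes at least 1 log2 unit above every other array in WT replicate 3 were all named after their values were seen. Besides the 9 members, 4 belonged to the wider pathway list: Lgals3bp, Ddx60, Ifi27 and Gbp4. The other 6 were BC023105, Ppbp, Gm4951, F13a1, Mrps21 and C1qb. Ppbp is a platelet chemokine, F13a1 is expressed by platelets and macrophages, and C1qb is a complement subunit made by macrophages. Ppbp had 5.58, 5.40 and 5.14 in KD and 5.88, 4.79 and 7.28 in WT cells. The 5 genes at least 1 log2 unit below every other array there included the atrial light chains Myl4 and Myl7, and none was an interferon response gene.

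Markers of some other cells moved on the same array, and those of others did not. The 12 macrophage markers, all measured, had a summed intensity of 575.3 to 650.4 in KD cells and of 690.3, 604.0 and 985.5 in WT replicates 1, 2 and 3, and 8 of the 12 were highest in WT replicate 3. Lyz2, macrophage lysozyme, had 6.24, 6.52 and 6.25 in KD and 7.02, 5.77 and 7.66 in WT cells, whereas Fcgr1, Cx3cr1, Ccr2 and C1qc were not highest there. The 3 measured red cell and platelet markers of 5 listed (Alas2, Ppbp and Pf4) summed to 108.2 to 128.7 in KD and to 143.9, 106.3 and 246.7 in WT cells. In WT replicate 3, 2 of the 3 were highest. Ppbp had already been named for its gap on that array, so the sum is not independent of that choice. The 5 atrial markers summed to 2237.8 to 3917.7 in KD and to 5158.3, 5905.2 and 1667.0 in WT cells, with the lowest sum in WT replicate 3. Myl4 and Myl7 of the atrial markers and C1qb of the macrophage markers had likewise been named for their gaps on that array. The atrial and macrophage sums are therefore not independent of that choice either. Summed T cell, neutrophil and natural killer markers in KD cells lay at 279.2 to 307.4, 134.2 to 147.9 and 52.5 to 53.2, and in WT cells at 270.5 to 304.2, 136.0 to 142.3 and 51.6 to 53.6. Endothelial markers summed to 4113.1 to 4806.4 in KD and to 5092.9, 4212.4 and 4778.0 in WT replicates 1, 2 and 3. Fibroblast markers summed to 1566.8 to 2131.9 in KD and to 2454.0, 1280.0 and 2013.7 in WT cells. Both sums peaked in WT replicate 1, and among WT arrays both were lowest in replicate 2. The part of these other cells in the interferon values was not tested, and in bulk RNA more cells of a type and more RNA per cell cannot be told apart. The 10 cardiomyocyte markers averaged 12.86 to 12.90 in KD cells and likewise in WT cells.

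**Figure D4:**
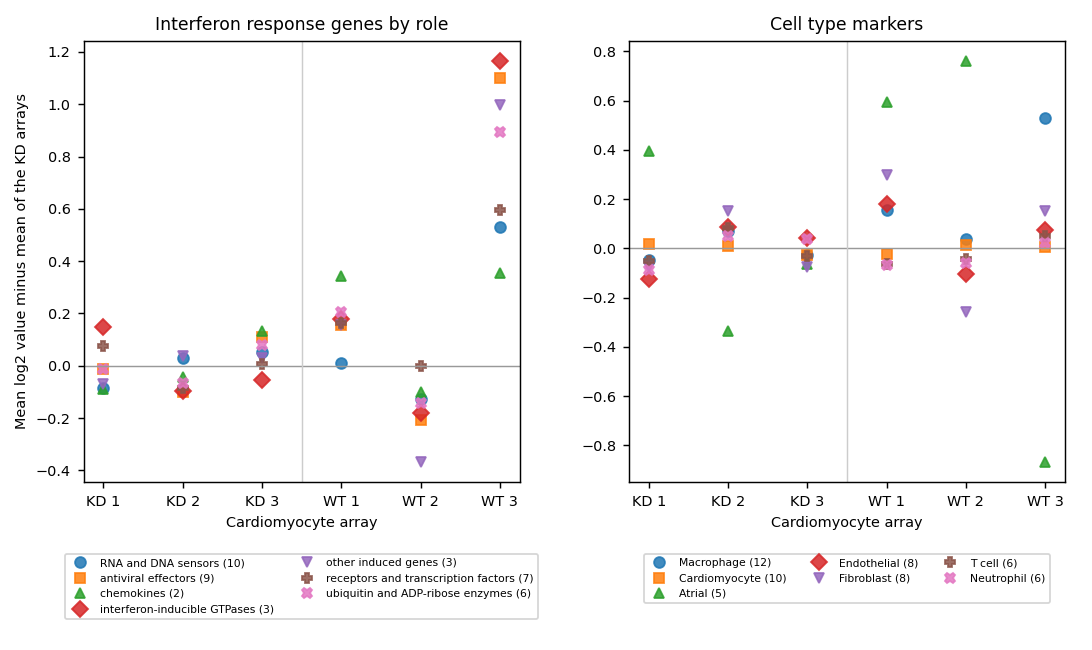
Mean log2 value of each group of genes on the 6 cardiomyocyte arrays minus its mean over the 3 KD arrays, with KD arrays left of WT arrays; the left panel shows interferon response genes by role and the right panel cell type markers, with the number of genes in brackets. All 7 interferon groups are highest in WT replicate 3, where macrophage markers are also raised and atrial markers are lowest.

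The following promoter stretches, chosen for a match to a known motif, show where that motif lies. The motif read GAAA, any 2 bases, GAAA; it is the core of the interferon-stimulated response element and was searched on both strands of the RefSeq promoter windows of GRCm38.p6, which run from 250 bases before to 50 after each annotated start. Windows were listed for 30 of the 40 measured genes. Among genes with a match, the 6 with the widest WT range are shown first, 5′ to 3′ on the gene's own strand, with capitals for the motif (its reverse complement where the match is on the opposite strand).
Ifit1: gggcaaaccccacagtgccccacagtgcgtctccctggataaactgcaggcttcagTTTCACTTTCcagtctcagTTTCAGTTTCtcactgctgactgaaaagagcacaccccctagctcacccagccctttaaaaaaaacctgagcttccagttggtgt
Ifit3: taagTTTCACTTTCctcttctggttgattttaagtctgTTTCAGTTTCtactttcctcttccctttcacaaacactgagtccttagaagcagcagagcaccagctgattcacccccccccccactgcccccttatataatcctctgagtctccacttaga
Ddx58: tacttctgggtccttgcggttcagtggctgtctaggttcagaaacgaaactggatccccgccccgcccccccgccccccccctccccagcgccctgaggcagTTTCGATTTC
Rsad2: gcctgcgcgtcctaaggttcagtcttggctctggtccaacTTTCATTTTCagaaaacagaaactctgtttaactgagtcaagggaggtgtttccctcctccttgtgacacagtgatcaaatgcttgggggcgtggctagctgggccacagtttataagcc
Gbp3: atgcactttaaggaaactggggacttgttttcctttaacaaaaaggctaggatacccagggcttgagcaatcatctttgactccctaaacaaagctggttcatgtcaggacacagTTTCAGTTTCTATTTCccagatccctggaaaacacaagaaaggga
Eif2ak2: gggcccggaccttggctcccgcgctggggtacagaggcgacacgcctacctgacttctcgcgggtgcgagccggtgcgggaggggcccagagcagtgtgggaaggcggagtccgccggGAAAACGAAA

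These stretches lie at chr19:34640729-34640888 on the plus strand (Ifit1), chr19:34583369-34583528 on the plus strand (Ifit3), chr4:40239814-40239925 on the minus strand (Ddx58) and chr12:26456453-26456612 on the minus strand (Rsad2). Gbp3 lies at chr3:142559884-142560043 on the plus strand and Eif2ak2 at chr17:78882545-78882672 on the minus strand. Ifit1 and Ifit3 each hold 2 separate matches, and the 2 matches of Gbp3 overlap in 1 run. Those of Ddx58 and Eif2ak2 lie past the annotated start. Rsad2 encodes viperin, Gbp3 a guanylate-binding protein and Eif2ak2 the kinase PKR, which stops translation when it binds double-stranded RNA.

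Oas3 and Ifnar1, with narrow WT ranges, are shown for contrast: Oas3 holds the motif and Ifnar1 does not.
Oas3: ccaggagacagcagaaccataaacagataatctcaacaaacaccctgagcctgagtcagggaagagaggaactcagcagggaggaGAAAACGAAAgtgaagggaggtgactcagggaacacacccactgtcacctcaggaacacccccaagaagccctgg
Ifnar1: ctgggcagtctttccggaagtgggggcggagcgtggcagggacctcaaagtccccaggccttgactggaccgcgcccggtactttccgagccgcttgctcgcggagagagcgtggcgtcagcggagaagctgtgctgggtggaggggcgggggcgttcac

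Oas3 lies at chr5:120777660-120777819 on the minus strand and Ifnar1 at chr16:91485055-91485214 on the plus strand. The motif was found in 13 of the 30 genes with a window (43.3%), against 3.99% of 27025 genes in the table. The 13 genes with it lay a median of 0.90 log2 units above the mean of the other 5 arrays in WT replicate 3, and the 17 without it a median of 0.42. TTCNNNGAA, the letters of the gamma-activated site of the type II response, was found in 11 of 30 (36.7%), against 9.55% of genes, and reads the same on both strands. Genes with TTCNNNGAA had a median excess of 0.24 and those without it of 0.90. The motifs overlapped in Bst2 alone. These are matches of letters in 1 window, shown as a description.

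The KD was compared with WT in cardiomyocytes to see whether less VAChT goes with another level of these genes. No interferon response gene passed the test, and no gene of the 19938 did (0.0%; limma on all 10 arrays, adjusted p under 0.05). The KD mean lay below the WT mean in 35 of 40 genes (87.5%), against 50% of all genes, with a median difference of -0.26 log2 units (range -1.14 to 0.17) beside -0.0001 over all genes. That layout rested on WT replicate 3. Without that array the KD mean was lower in 19 of 40 genes and the median difference was 0.03 (range -0.25 to 0.28), beside 0.0007 over all genes. Without WT replicate 2 the median was -0.50, and against WT replicate 1 by itself it was -0.14.

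An unadjusted limma p under 0.05 was found for 5 genes, all with KD lower, which is 12.5% of the 40 against 1.11% of all genes (2.1% with either direction). Stat2, the type I signal carrier, had 6.95, 6.73 and 6.77 in KD and 7.10, 6.99 and 7.72 in WT cells, so that all KD arrays lay below all WT arrays. Its difference was -0.45 (SE 0.17, limma adjusted p = 1), and -0.23 without WT replicate 3. Adar, which edits adenosines in double-stranded RNA, had 6.59, 6.63 and 6.77 in KD and 6.81, 6.84 and 7.17 in WT cells, a difference of -0.28 (SE 0.12, limma adjusted p = 1). Here too the groups did not overlap, and the difference was -0.16 without WT replicate 3.

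Irgm1, a GTPase of autophagic defence, had 7.33, 6.94 and 7.31 in KD and 7.62, 7.28 and 8.47 in WT cells. It differed by -0.59 (SE 0.23, limma adjusted p = 1) with overlapping groups, and by -0.25 without WT replicate 3. Dtx3l, a ubiquitin ligase that works with Parp9, had 7.48, 7.27 and 7.59 in KD and 7.76, 7.55 and 8.31 in WT cells, a difference of -0.43 (SE 0.19, limma adjusted p = 1). Trim25, the ligase that activates RIG-I, had 7.07, 7.12 and 6.99 in KD and 7.54, 7.05 and 7.57 in WT cells. It was high on 2 of the 3 WT arrays and differed by -0.33 (SE 0.13), or by -0.24 without WT replicate 3. These 5 differences kept their sign whichever single array was left out.

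The widest difference had the widest error. Ifit1 differed by -1.14 (SE 0.62, 95% interval -2.47 to 0.20), and by -0.07 without WT replicate 3. Irf7 differed by -0.61 (SE 0.29), or by -0.16 without that array. Usp18, Mx2, Rtp4, Iigp1, Irf9, Xaf1 and Ifit3 were lower in KD by the means of all arrays, and all 7 had a difference above 0 without WT replicate 3, between 0.04 for Irf9 and 0.27 for Usp18. In 3 of 40 genes (Stat2, Adar and Ifnar1) the KD arrays lay below all WT arrays, which is 7.5% against 3.21% of all genes, and in 0 of 40 they lay above (2.99%). With fewer arrays to separate, the share of all genes rises too. The count was 23 of 40 without WT replicate 2 (7.37% of all genes), 6 without KD replicate 3 (6.42%) and 3 without WT replicate 3 (7.24%). The median half-width of the 95% interval over all genes was 0.25 log2 units, without adjustment for the number of genes. Differences smaller than this were mostly not detectable with these arrays. A larger difference need not pass the adjusted test either: Irgm1 at -0.59 and Ifit1 at -1.14 did not.

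**Figure D5:**
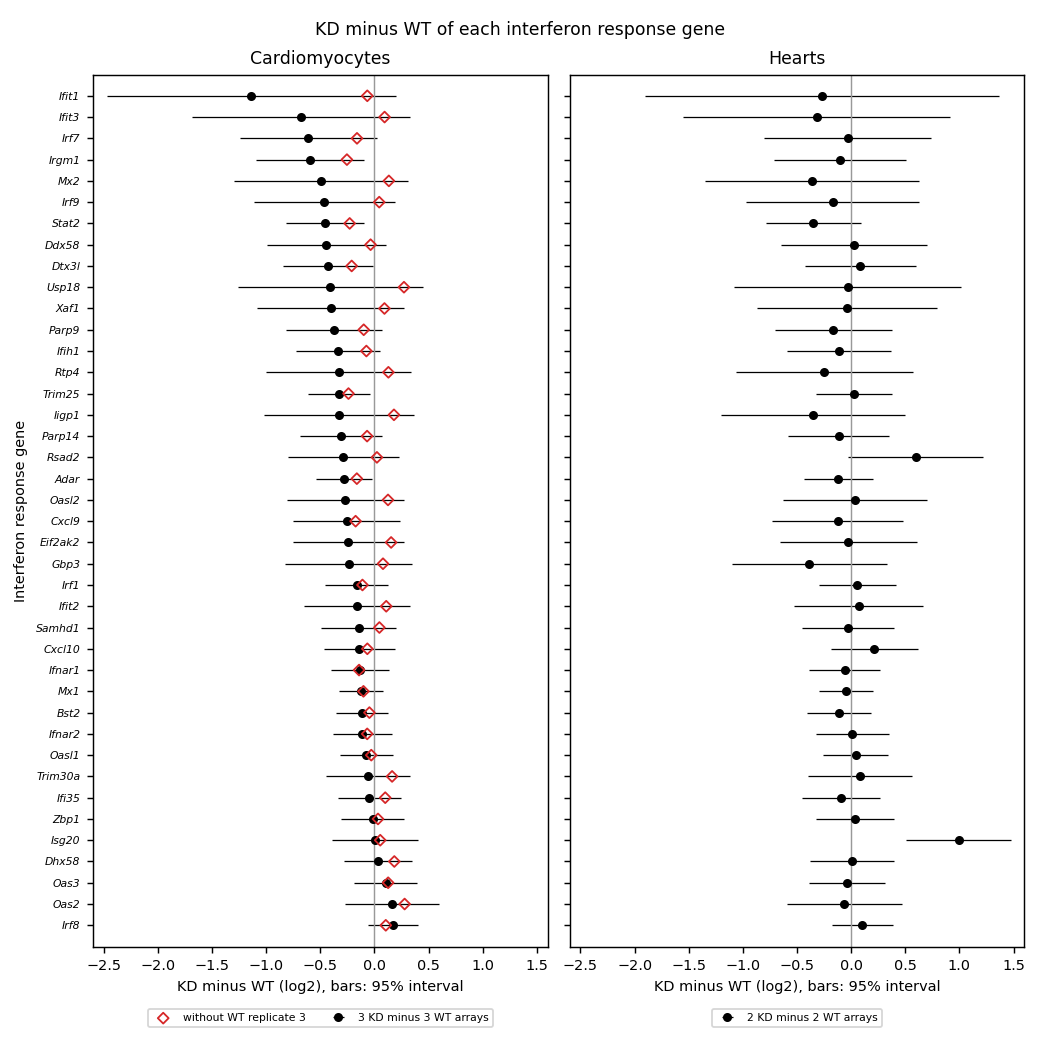
Difference KD minus WT of each interferon response gene in log2 units, with bars for limma's 95% interval, in cardiomyocytes (left, 3 against 3 arrays) and hearts (right, 2 against 2 arrays); open diamonds leave out WT cardiomyocyte replicate 3. The filled points in cardiomyocytes lie below 0 in 35 of 40 genes and the diamonds in 19 of 40, and in hearts Isg20 stands apart at 0.99.

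The same comparison was made in whole hearts. No interferon response gene passed the test there, and no gene at all did (0.0%, limma, adjusted p under 0.05), with 982 genes (4.93%; 2.49% with KD lower, 2.44% with KD higher) and 1 of the 40, Isg20, higher in KD, at an unadjusted p under 0.05. The KD mean was lower in 25 of 40 genes (62.5%), against 47.4% of all genes, with a median difference of -0.04 (range -0.39 to 0.99) beside 0.01 over all genes. KD and WT hearts did not overlap in 12 of 40 genes, against 29.6% of all genes. KD hearts were below WT hearts in 9 of them (22.5%, against 15.4% of all genes) and above in 3 (7.5%, against 14.2%).

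Isg20, an exonuclease that degrades viral RNA, had 9.97 and 10.39 in KD and 8.76 and 9.61 in WT hearts, so both KD hearts lay above both WT hearts. The difference was 0.99 log2 units (SE 0.22, limma adjusted p = 0.871), or 0.57 without WT heart replicate 1 and 1.42 without WT heart replicate 2. Rsad2, or viperin, which makes a chain-terminating nucleotide, had 9.51 and 9.76 in KD and 8.84 and 9.23 in WT hearts, a difference of 0.60 (SE 0.29, limma adjusted p = 1). The third gene above WT, Trim30a, a regulator of Toll-like receptor signalling, had 9.90 and 9.95 in KD and 9.81 and 9.88 in WT hearts. All 3 ran in the order KD replicate 2, KD replicate 1, WT replicate 2, WT replicate 1, an order noticed after the values were seen. Of the 40 genes, 3 held this order (7.5%), against 5.0% of all genes. These 3 had been picked for lying above WT, so their shared order is not independent of that choice. The red cell and platelet markers ran in the same order, with summed intensities of 6957.1 and 8864.7 in KD and 3296.2 and 6054.4 in WT hearts, and their part in the result was not tested.

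The next genes by p in hearts differed less. Stat2 had 8.39 and 8.11 in KD and 8.66 and 8.53 in WT hearts, a difference of -0.35 (SE 0.20), without overlap as in cardiomyocytes. Iigp1 had 9.17 and 9.01 in KD and 9.54 and 9.34 in WT hearts (difference -0.35). Gbp3 had 8.03 and 7.65 in KD and 8.67 and 7.79 in WT hearts, a difference of -0.39 that was 0.06 without WT heart replicate 1. Cxcl10, a lymphocyte chemokine, had 7.09 and 6.65 in KD and 6.46 and 6.84 in WT hearts, with overlapping groups. Markers of some other cells were also lower in KD hearts, and those of others were not. The 8 fibroblast markers averaged 9.90 and 9.77 in KD and 10.17 and 10.09 in WT hearts, the 8 endothelial markers 10.35 and 10.27 in KD and 10.55 and 10.39 in WT hearts, and the 7 smooth muscle and pericyte markers 9.33 and 9.42 in KD and 9.57 and 9.51 in WT hearts. The 5 atrial markers summed to 13120.1 and 5574.4 in KD and 15708.4 and 13966.1 in WT hearts, with KD replicate 2 apart. The 12 macrophage markers averaged 8.71 and 8.85 in KD and 8.68 and 8.85 in WT hearts, with overlapping groups. The red cell and platelet markers given above were higher in KD hearts. The part of all these markers in the heart differences was not tested. KD heart replicate 1, with its thymocyte signal, was at least 1 log2 unit above the other hearts in 149 genes, none of them an interferon response gene.

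Most genes that separated the WT cardiomyocyte arrays differed less among hearts. Ifit1 had 8.02 and 7.69 in KD and 8.22 and 8.03 in WT hearts, and Ifit3 had 7.61 and 7.65 in KD and 8.13 and 7.76 in WT hearts. Usp18 had 7.75 and 7.59 in KD and 7.75 and 7.64 in WT hearts, and Irf9 had 9.02 and 9.04 in KD and 9.16 and 9.23 in WT hearts. Irf7 had 8.75 and 8.62 in KD and 8.79 and 8.65 in WT hearts. Over all 4 hearts the gap between the highest and lowest was 1.01 log2 units for Gbp3, 0.91 for Rsad2 and 0.70 for Mx2. The gap between replicate hearts had a median of 0.18 in KD and 0.15 in WT over the 40 genes, against 0.18 in KD and 0.11 in WT over all genes, and reached 1 in none of the 40.

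The effects of the KD in the 2 kinds of sample were set against each other in the same fit, as cardiomyocytes minus hearts. No gene passed the test (0.0%), and 2 of 40 genes had an unadjusted limma p under 0.05, against 3.49% of all genes. Isg20 differed between the kinds by -0.99 (SE 0.29, limma adjusted p = 0.999), with 6.66, 6.73 and 6.78 in KD and 6.76, 6.58 and 6.81 in WT cardiomyocytes, where the groups overlapped. Rsad2 differed by -0.88 (SE 0.37, limma adjusted p = 0.999), with 6.56, 6.40 and 6.50 in KD and 6.80, 6.13 and 7.39 in WT cardiomyocytes. The next smallest p belonged to Trim25, at -0.36 (SE 0.21), which had 8.31 and 8.21 in KD and 8.19 and 8.29 in WT hearts.

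Most members were moderately bright in both kinds. Their median percentile among all genes was 60.4 in cardiomyocytes and 61.6 in hearts, and 31 and 32 of the 40 lay at or above percentile 50. Rtp4 lay at a mean percentile of 39.3 in cardiomyocytes and 85.2 in hearts, Isg20 at 59.2 and 89.1, and Trim30a at 58.0 and 92.3. Ifnar2 was high in both, at 87.3 and 86.5, and Mx1 low in both, at 13.4 and 11.5. No test was made between the kinds, whose arrays were labelled differently.

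The wider pathway was followed in 113 listed genes outside the members, of which 100 were measured. None passed the test in cardiomyocytes or in hearts. In cardiomyocytes the KD mean was lower in 75 of 100, against 50% of all genes, with a median difference of -0.06. Without WT replicate 3 it was lower in 57 of 100, with a median of -0.01 beside 0.0007 over all genes. The share of all genes lower without that array was not counted. In hearts the KD mean was lower in 40 of 100, against 47.4% of all genes, with a median of 0.02. WT cardiomyocyte replicate 3 was highest in 47 of 100, against 17.7% of all genes. Of the 9 measured interferon genes, WT replicate 3 was highest in 3, and in none by 1 log2 unit or more. Ifnb1 lay between 3.60 and 4.02 in KD and between 3.74 and 3.75 in WT cardiomyocytes, and Ifng between 4.94 and 4.99 in KD and between 4.75 and 5.06 in WT cardiomyocytes. The 5th percentile of genes lay between 3.52 and 3.58 on these arrays. Ifnb1 was thus near the dimmest genes, where unchanged values say little.

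Tlr3, the endosomal sensor of double-stranded RNA, was the gene of this wider list with the smallest p in both kinds. It had 6.54, 6.46 and 6.69 in KD and 6.92, 6.83 and 7.10 in WT cardiomyocytes, and 6.91 and 6.75 in KD and 7.21 and 7.34 in WT hearts. The KD arrays lay below the WT arrays in each kind. The difference was -0.39 (SE 0.11, limma adjusted p = 1) in cardiomyocytes, or -0.31 without WT replicate 3, and -0.44 (SE 0.13, limma adjusted p = 0.950) in hearts. The effect in cardiomyocytes minus that in hearts was 0.06, with a 95% interval of -0.31 to 0.43.

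Cd74, the invariant chain of class II antigen presentation, differed by -0.55 in cardiomyocytes (5.57, 5.70 and 5.65 in KD, 6.45, 5.67 and 6.45 in WT cells), with overlapping groups. Tap1, the peptide transporter of class I presentation, had 6.60, 6.50 and 6.42 in KD and 7.02, 6.50 and 7.33 in WT cells. Both genes were low in WT replicate 2 and high on the other WT arrays. Ddx60, a helicase that assists RIG-I, had 5.53, 5.38 and 5.30 in KD and 5.61, 5.63 and 7.00 in WT cells, without overlap, and its difference of -0.68 was -0.22 without WT replicate 3. Lgals3bp, a secreted glycoprotein, had 7.86, 7.81 and 8.12 in KD and 8.22, 7.50 and 10.19 in WT cells.

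Gbp4, a guanylate-binding protein, had 6.48, 6.75 and 6.85 in KD and 7.38, 6.04 and 8.42 in WT cells. Ifi27, a small mitochondrial protein, had 7.73, 7.59 and 7.22 in KD and 7.75, 7.07 and 8.99 in WT cells. Both repeated the layout of replicate 3 on top and replicate 2 at the bottom. Ifi203, of a family of DNA-binding proteins, had 7.90, 8.69 and 8.57 in KD and 8.84, 7.59 and 9.02 in WT cells, in the same layout but with WT replicate 3 only 0.18 log2 units above the next array. Its relative Ifi205 had 5.31, 5.56 and 5.11 in KD and 6.10, 4.57 and 5.54 in WT cells, with its peak in WT replicate 1.

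In hearts, Ube2l6, the enzyme that passes Isg15 to its ligases, had 11.10 and 11.38 in KD and 10.20 and 10.95 in WT hearts, a difference of 0.66 (SE 0.20, limma adjusted p = 0.950). Tlr7, a sensor of single-stranded RNA, had 6.84 and 7.61 in KD and 6.41 and 7.02 in WT hearts, with overlapping groups. Casp1, the inflammasome protease, had 5.94 and 6.18 in KD and 6.58 and 6.35 in WT hearts, a difference of -0.40. Ube2l6 thus followed the same order of hearts as Isg20, Rsad2 and the red cell and platelet markers.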

How the data were processed

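RNA of KD and WT ventricular cardiomyocytes and hearts was hybridised to Affymetrix arrays. The authors deposited 35556 probe sets as log2 intensities, made with RMA and Partek (versions not given), per the submitters' processing notes; how background and normalization were set is not given in the sources used here. Of these probe sets, 21789 had 1 gene symbol in GEO's platform annotation, 1621 several and 12146 none. Each gene took its probe set with the highest mean, leaving 19938 genes, with no filter on low values. Replicate numbers came from the labels, which do not say that arrays came from separate litters, so p-values measure the spread between these pools.

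Group means were fitted on all 10 arrays with limma 3.58.1 (R 4.3.3; eBayes with an intensity trend, two-sided, Benjamini-Hochberg over all genes), tested first on simulated data. Arrays give no counting depth, and their number limits the precision. The members and lists were chosen with earlier results of these data known. Named in full were the receptor and signal genes, those with the smallest p in either kind or for the difference of effects, and those with the widest or narrowest range over WT cardiomyocytes; genes of the wider list were named by p and WT range. Promoters are from RefSeq, GRCm38.p6. Alternatives were other scaling (quantile or median centring), the mean over a gene's probe sets, a filter on dim genes, a fit per kind, array weights, no trend, robust eBayes, a replicate block and leaving out each array.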

Additional observations from a re-analysis of the deposited data

How the results depend on the processing

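No interferon response gene was called in either kind of sample under any alternative run. All genes called in hearts numbered 1 with the replicate block and between 0 and 303 when 1 array was left out (303 without KD heart replicate 2, 2 without WT heart replicate 1, 1 without KD heart replicate 1), and for the difference of effects between 0 and 237; the cause was not tested. In cardiomyocytes none was called under any alternative. The median difference of the 40 genes ranged from -0.50 to 0.03 in cardiomyocytes with 1 array left out, and from -0.099 to -0.021 in hearts, where it was -0.081 with quantile normalization of all arrays. The count of genes lower in KD cardiomyocytes ranged from 19 to 36, and of genes with all KD below all WT cardiomyocytes from 3 to 23 (6.42% to 8.97% of all genes). The count of genes with all KD below all WT hearts was 9 with every heart and 11 to 22 with 1 left out (28.2% to 42.1% of all genes, against 15.4%), where fewer arrays have to separate; these counts, and the median without WT replicates 2 and 3, were added after seeing the data. The replicate numbers were not shown to pair the arrays. In cardiomyocytes, correlations of same-numbered deviations from group means were 0.152, 0.131 and -0.052, and different-numbered ones lay between -0.188 and 0.066. In hearts the same-numbered value was 0.234 and the different-numbered one -0.234. With 2 arrays in a group these heart values must mirror each other. The block changed no other call.

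Differences near 0 changed sign under other settings. With median centring these were Isg20 in cardiomyocytes (-0.0003) and, in hearts, Ddx58 (-0.0083), Dhx58 (-0.027), Trim25 (-0.0083) and Ifnar2 (-0.022). Dhx58 in hearts was -0.046 and Zbp1 in hearts -0.0095 with quantile normalization of all arrays, and -0.041 and -0.0080 with it within each kind; Zbp1 in cardiomyocytes was 0.021 with array weights. Leaving out 1 array turned the sign of 20 genes in cardiomyocytes, 16 of them without WT replicate 3. Their ranges were Dhx58 -0.088 to 0.18, Eif2ak2 -0.47 to 0.15, Gbp3 -0.55 to 0.079, Ifi35 -0.21 to 0.099, Ifit2 -0.38 to 0.11, Ifit3 -1.24 to 0.093, Iigp1 -0.62 to 0.18, Irf9 -0.78 to 0.044, Isg20 -0.062 to 0.053, Mx2 -0.85 to 0.13, Oas2 -0.15 to 0.35, Oas3 -0.041 to 0.27, Oasl2 -0.58 to 0.12, Rsad2 -0.61 to 0.022, Rtp4 -0.79 to 0.13, Samhd1 -0.32 to 0.045, Trim30a -0.31 to 0.16, Usp18 -0.83 to 0.27, Xaf1 -0.73 to 0.092 and Zbp1 -0.17 to 0.085. In hearts it turned the sign of 23 genes, with ranges of Cxcl10 -0.0068 to 0.44, Ddx58 -0.033 to 0.081, Dhx58 -0.20 to 0.21, Dtx3l -0.20 to 0.38, Eif2ak2 -0.070 to 0.019, Gbp3 -0.83 to 0.056, Ifih1 -0.26 to 0.033, Ifit2 -0.22 to 0.36, Ifnar1 -0.31 to 0.19, Ifnar2 -0.15 to 0.17, Irf1 -0.11 to 0.23, Irf7 -0.10 to 0.042, Mx1 -0.16 to 0.059, Oas2 -0.20 to 0.071, Oas3 -0.086 to 0.012, Oasl1 -0.13 to 0.21, Oasl2 -0.082 to 0.15, Parp9 -0.38 to 0.050, Samhd1 -0.12 to 0.063, Trim25 -0.026 to 0.075, Usp18 -0.11 to 0.048, Xaf1 -0.21 to 0.13 and Zbp1 0 to 0.072. The cause was not tested.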
